A study of Drosophila melanogaster with 4 samples.

Results

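The circular RNAs described here come from 10 fly genes that encode RNA-binding regulators, chosen by the gene symbol in the deposited table and leaving out mbl. The genes were aret (now bru1), bru-2, bru-3, heph, msi, CG32169 (Rbp6), CG17838 (Syp), orb2, pum and ps, and they supplied 44 of the 2563 listed circular RNAs (circRNAs). Ribosome-protected fragments were sequenced from heads of Drosophila melanogaster in 4 libraries, 2 from heads treated with a low detergent buffer and 2 with a high detergent buffer. Heads 1 and 2 followed an earlier homogenization method, and for heads 3 and 4 the lysis buffer (500 µl for 200 frozen heads) contained 0.1% Triton, a mild detergent, and cycloheximide, which halts translating ribosomes. The labels name no strain, genotype, age or sex. They do not say which head number belongs to which buffer, so the 4 library columns were not used. Whether the reads on a circRNA came from 1 library or from several is therefore not given. Every read count below is the authors' total for the pooled samples and so has no error between replicates, and the buffers were not compared.

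A circRNA forms when the donor splice site at the end of an exon is joined back to the acceptor site that opens that exon or one upstream. Such circles lack the cap and the tail of an mRNA, resist exonucleases and are abundant in fly heads, where neurons are a major source. A ribosome on a circle can be seen only by a footprint that crosses the back-splice junction, because the rest of its sequence is shared with the linear mRNA. The reads in the table are taken to be such footprints, which it does not state. Proteins of this class bind short motifs in RNA and control splicing, translation or localization of their targets.

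The whole table held 230 reads, and 2441 circRNAs had 0 and 96 had exactly 1. For a circRNA with none, a floor set at 3 counts in 230 is 1.30% of all reads. The exact Poisson upper limit for a count of 0 is slightly higher, at 3.69 counts. Of 20 marker genes of head cell types, 11 had a listed circRNA: 3 of 5 for neurons (brp, Syt1, para), 2 of 5 for photoreceptors, 2 of 3 for glia, 3 of 3 for muscle and 1 of 4 for fat body. The neuronal marker elav and the glial marker repo were listed with none, which in a list of circRNAs says nothing about their mRNA. Being listed does not mean having a read here, since 2441 of the 2563 listed circRNAs had 0. Counts of circRNAs per gene and of shared ends below therefore describe the list, not detection by these reads. Intervals below are 95%, exact Poisson for counts and exact binomial (Clopper-Pearson) for shares, and cover counting error only.

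Each of the 10 genes had at least 2 listed circRNAs, against 532 of all 1227 host genes (43.4%). Counted by symbol, the gene with most was pum with 8, followed by ps with 7, msi with 6, heph with 5 and CG17838 with 4. Rows under another or no symbol that lead to ps in the current gene table would bring ps to 14, above pum. The genes bru-2, bru-3, CG32169 and orb2 had 3 each, and aret had 2. The median was 3.5 per gene among the 10 and 1 over all host genes. The genes were chosen with earlier results of these data known, so both comparisons are description only and no conclusion is drawn from them. On the count by symbol, only 22 host genes of the table had more circRNAs than pum, and 280 had more than aret. For comparison, mbl, a splicing regulator, had 17.

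**Figure D1:**
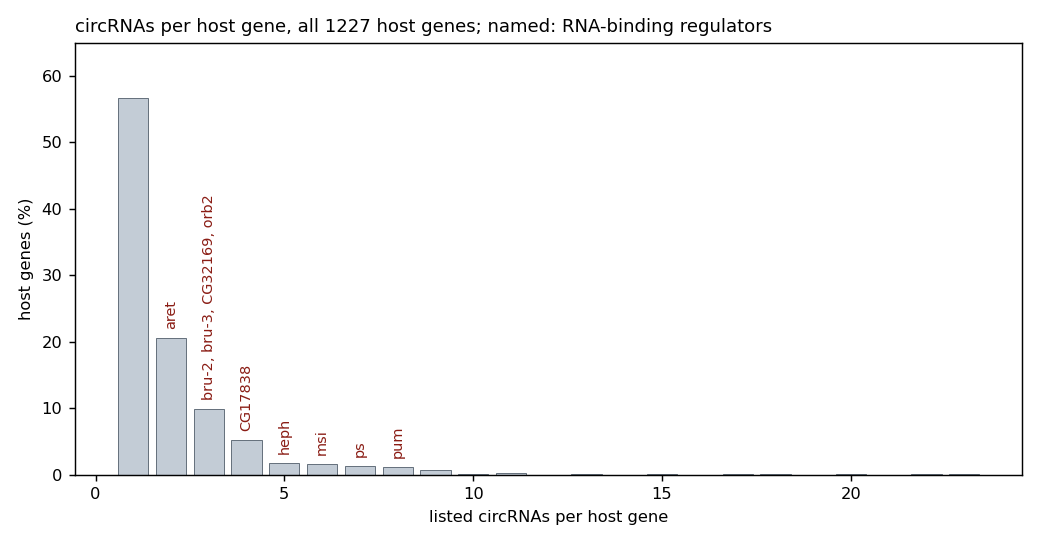
Share of all 1227 host genes (y axis, percent) by number of listed circRNAs (x axis), with the 10 RNA-binding regulator genes named above the bar they belong to. Counted by symbol, the genes, chosen with earlier results of these data known, spread from 2 (aret) to 8 (pum), to the right of the most common value of 1.

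Footprint reads fell on 4 of the 44 circRNAs (9.09%, 2.53% to 21.7%), beside 4.76% of the whole table (122 of 2563). These 4 came from 4 genes and held 6 reads in all (Poisson interval 2.20 to 13.1), or 2.61% of the 230 reads (0.963% to 5.59%), while the 44 circRNAs made up 1.72% of the list. The values of the table, 4.76% and 1.72%, lie within these intervals, so no difference from the table was detectable at this depth. With at least 2 reads the count was 2 of 44, beside 1.01% of the table. A single circRNA of mbl had 42 reads (30.3 to 56.8) and one of Sh, a potassium channel gene, had 28 (18.6 to 40.5), so the intervals of both lay above that of all 6 reads on the 10 genes together.

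The 2 circRNAs with 2 reads each (0.242 to 7.22) came from heph and msi. The heph circRNA was the shortest of its gene, a span of 124 bp at 3R from 27707470 to 27707593 in dm3, and the msi circRNA spanned 1231 bp at 3R from 21425229 to 21426459. The circRNAs with 1 read each (0.0253 to 5.57) came from aret, at 2L from 12240868 to 12241780 (913 bp), and from ps, at 3R from 5257751 to 5258561 (811 bp). At 1 and 2 reads their intervals overlap, and they cannot be ordered. The median span of these 4 was 862 bp and that of the 40 without a read 1272 bp, with ranges from 124 to 1231 bp and from 114 to 42783 bp. In the table the medians were 1302 bp for the 122 circRNAs with a read and 1042 bp for all, with and without a read. With 4 circRNAs no direction can be set for the members, and the difference was not tested. The other 6 genes, bru-2, bru-3, CG32169, CG17838, orb2 and pum, had 0 reads on 24 circRNAs.

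**Figure D2:**
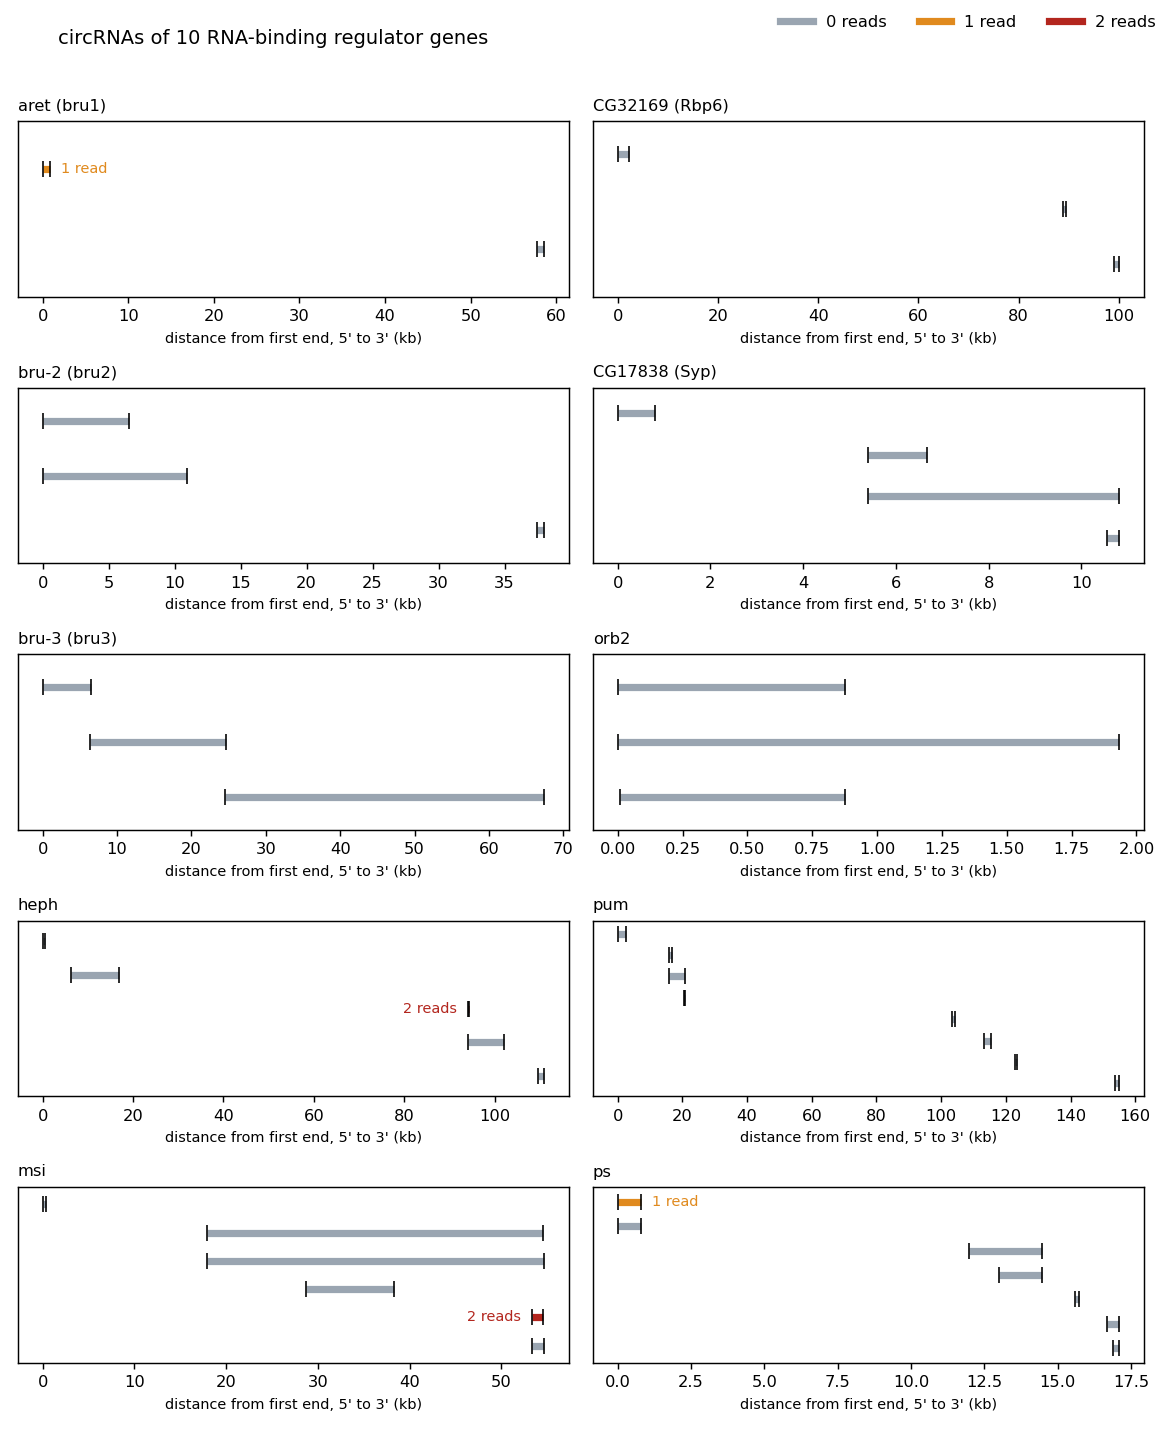
Position of each of the 44 circRNAs along its gene, drawn in the direction of transcription, with the distance from the first back-splice end in kb on the x axis and 1 bar per circRNA (vertical ticks mark its 2 ends; grey, 0 reads; orange, 1 read; red, 2 reads). Ends stacked on one another are shared, as in msi and orb2, and the 3 circRNAs of bru-3 follow each other along the gene.

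To place the circRNAs in their genes, its genomic span was set beside the length of every exon block of its gene, a block being a stretch that opens with one annotated exon and closes with that exon or one downstream. A span equalled a block for 30 of the 44 (68.2%, 52.4% to 81.4%), beside 1950 of 2563 (76.1%) in the table. All 6 circRNAs of msi lacked a match. Without msi the count was 30 of 38 (78.9%). Of the 30, 28 matched 1 block and 2 matched several blocks of equal length. None of the 28 began at exon 1 of a matching transcript or ended at its last exon, as for nearly all in the table (13 and 10 of 1918). For 12 of the 28 (42.9%) the circle began at exon 2 of some transcript, beside 44.9% in the table.

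Of these 28, 12 held an annotated start codon in at least 1 matching transcript (42.9%, 24.5% to 62.8%), beside 726 of 1917 in the table (37.9%, 35.7% to 40.1%). In all matching transcripts it was 7 of 28 (25%, 10.7% to 44.9%), beside 29.1% (27.0% to 31.1%). The 7 came from bru-2, ps and orb2 with 2 each and pum with 1. A stop codon was held by 1 of the 28, beside 61 of 1917 in the table. The spliced length could be given as a single number for 23, and 8 of these (34.8%, 16.4% to 57.3%) were multiples of 3, a length that keeps the reading frame after each turn of the circle, beside 35.9% in the table. Among them were 501 bases for orb2, which holds the start codon, and 864 for pum, which does not.

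Splicing regulators come first. The gene heph encodes the fly polypyrimidine tract-binding protein, a splicing repressor, and its 5 circRNAs lay within a reach of 110834 bp. All 5 matched exon blocks. The 124 bp circRNA with 2 reads was 1 coding exon, found in 24 of the 25 annotated transcripts, and only 1 of the 24 had its start codon there. A second circRNA of heph, with 0 reads and a span of 8038 bp, used the same acceptor at 27707593 and added the next exon of 266 bases, for a spliced length of 390. The longest, at 10751 bp, was also one of the smallest once spliced, with exons of 30 and 93 bases, and held the start codon in 11 of 12 matching transcripts. The remaining circRNAs of 518 bp (1 exon, untranslated) and 1305 bp (3 coding exons) had 0 reads.

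The gene ps (pasilla), the fly homologue of the NOVA splicing regulators, had 7 circRNAs of 114 to 2487 bp. Of these 6 shared a donor with another, in 3 pairs that end at 5258561, 5272219 and 5274833, and none shared an acceptor. The pair ending at 5258561 consisted of single exons of 811 and 808 bases whose acceptors lay 3 bases apart. Each held the start codon in every matching transcript, and the 1 read fell on the longer. The pair ending at 5272219 differed by 1 exon of 66 bases, with spliced lengths of 1380 and 1314. The spans of 114, 199 and 393 bp near the end of the gene matched no exon block. A further 7 rows of the table, 6 named CG16777 and 1 with no symbol, carry an accession that leads to ps in the current gene table. With them ps would have 14 circRNAs and 2 reads.

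Next come the 3 members of the Bruno (CELF) family, which act in splicing and translation. The gene aret encodes Bruno, known as the translational repressor of oskar mRNA in the ovary and as a splicing regulator of flight muscle. Its 913 bp circRNA with 1 read equalled 2 different single exons in length. One of them, exon 2, holds the start codon in 3 of 3 matching transcripts. It lay at the same distance from the position in the table, 0, as the blocks of the 4 members on 2L that matched 1 block. The second aret circRNA, of 827 bp, had 3 exons present in all 11 transcripts and held the start codon in 1 of them. In bru-2 a pair of 6558 and 10946 bp shared the acceptor at 12351704, which opens exon 2, and both held the start codon in all 8 matching transcripts. The remaining one, a single exon of 481 bases, lacked it.

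The circRNAs of bru-3 spanned 6505, 18285 and 42783 bp, with the highest gene median of the 10 and no end in common. Instead they overlapped end to start. Those of 6505 and 18285 bp overlapped by 135 bp and those of 18285 and 42783 bp by 80 bp, and both overlaps equalled the length of an annotated bru-3 exon. The 18285 bp circRNA consisted of exactly these 2 exons, with a spliced length of 215 bases. The exon of 80 bases thus closed one circRNA and opened the next, the 42783 bp one, which had 4 exons in all 18 transcripts. The 6505 bp circRNA itself matched no exon block.

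Translational regulators of the Musashi and Pumilio families differed in how their circRNAs were built. The gene msi encodes Musashi, a translational repressor in sensory organ development. Of its 6 circRNAs, 4 used 2 acceptors (21389802 and 21425229) and 2 donors (21426459 and 21426486) in every combination. The donors lay 27 bases apart, so spans came in pairs of 36658 and 36685 bp and of 1231 and 1258 bp. The 2 reads fell on the shorter of the short pair. The other two, of 345 and 9570 bp, shared no end. The second Musashi family gene, CG32169, had 3 circRNAs of 577, 922 and 2187 bp, each with 2 exons and no start codon. They shared no end and were strewn over a reach of 99963 bp.

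In pum, which encodes the translational repressor Pumilio, 8 circRNAs lay within 154920 bp and all had 0 reads. Of these, 3 formed a set. A circRNA of 5004 bp had 5 exons of 242, 127, 119, 289 and 87 bases. Another of 777 bp shared its acceptor at 5044485 and held the first 3 of these exons, and one of 506 bp shared its donor at 5039482 and held the last 2. The spliced lengths of the shorter circRNAs, 488 and 376 bases, add up to the 864 of the longer. The circRNA nearest to the start of the gene spanned 2591 bp with exons of 1136 and 783 bases, and held the start codon in 4 of 4 matching transcripts, as none of the other 3 of pum that matched 1 block did. The spans of 857, 1083 and 2257 bp matched no exon block.

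The gene CG17838 encodes Syncrip, an hnRNP protein, and had a similar set. A circRNA of 5408 bp shared its acceptor at 16622866 with one of 1266 bp (5 exons) and its donor at 16628273 with one of 262 bp (1 exon). The spliced length of the long circle was 868, 1152 or 1176 bases by transcript. The smallest equals the sum of 606 and 262, whereas the other forms hold a further exon of 284 bases between the shorter circles. The remaining circRNA, of 811 bp, held the start codon in 7 of 20 transcripts. Such sets, a circle divided without overlap between a pair of shorter ones at both its ends, were found in 2 of the 9 member genes with at least 3 circRNAs and in 70 of 280 genes of the table. By the smallest spliced length of each circle, the lengths added up in 2 of 2 sets here and in 78 of 151 in the table.

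**Figure D3:**
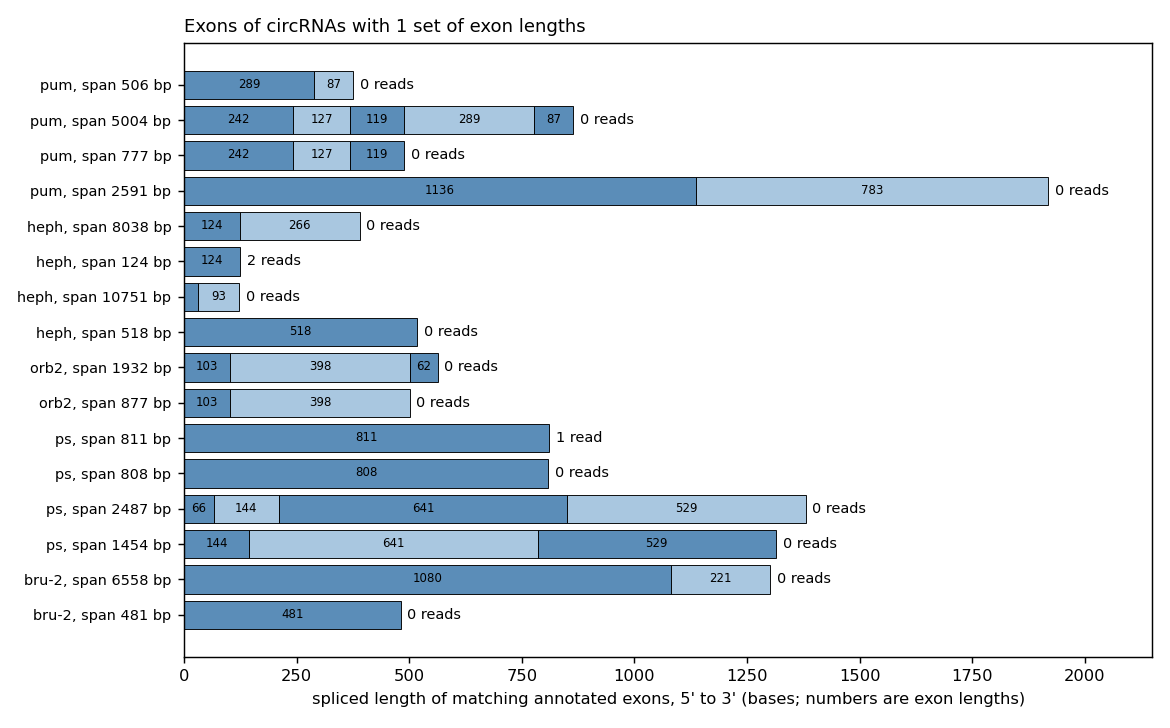
Annotated exons of the circRNAs of pum, heph, orb2, ps and bru-2 whose matching transcripts give 1 set of exon lengths, spliced and drawn to scale in bases (x axis) with alternating shades and the read count beside each bar. The 864 bases of the pum circRNA with a 5004 bp span are those of the circRNAs spanning 777 and 506 bp, and the heph exon of 124 bases occurs alone with 2 reads and with its neighbour with 0.

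The gene orb2 encodes a cytoplasmic polyadenylation element-binding protein required for long-term memory. Its 3 circRNAs were packed into 1932 bp, and each shared an end with another. The circRNAs of 1932 and 877 bp shared the acceptor at 8942859 and held the start codon in all 6 matching transcripts, with spliced lengths of 563 and 501 bases. The remaining one, of 868 bp, used the donor of the 877 bp circRNA at 8941983 and an acceptor 9 bases further in, and matched no annotated block. None had a read.

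Over the 10 genes, 23 of the 44 circRNAs shared a back-splice end with another of the same gene (52.3%, 36.7% to 67.5%), beside 1159 of the 1868 circRNAs of genes with at least 2 (62.0%, 59.8% to 64.3%). The ends in common were 15, of which 7 were acceptors and 8 donors, and each was used by exactly 2 of the 44 circRNAs. The 6 rows named CG16777, which lead to ps but are not among the 44, share a further donor. An acceptor was shared by 14 circRNAs and a donor by 16. The genes aret, bru-3 and CG32169 had no shared end. Among the 93 pairs of circRNAs within the 10 genes, 15 had an end in common (16.1%), beside 24.8% of the 4166 pairs in the table. In 4 of the 15 (26.7%, beside 6.87% in the table) the other ends lay within 30 bases, at 3 bases in ps, 9 in orb2 and 27 for both pairs of msi. All 4 distances were multiples of 3, beside 43 of 71 such pairs in the table (60.6%). The 2 msi pairs rest on the same donors and are not independent. The msi circRNAs of these pairs and the orb2 circRNA of 868 bp matched no annotated exon block. The difference from the table was not tested.

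The 44 spans ran from 114 bp (ps) to 42783 bp (bru-3), with a median of 1244.5 bp, beside 1042 bp in the table. Quartiles were 800.25 and 5105 bp for the 44 and 457.5 and 2551 bp for the table. At least 10000 bp was spanned by 6 of the 44, from bru-2, bru-3, heph and msi, and by 173 of 2563 in the table (6.75%). The msi circRNAs among the 6 share an acceptor and have donors 27 bases apart, so they are not independent. The difference from the table was not tested. Within msi the longest circRNA was 106-fold longer than the shortest and within heph 86.7-fold, whereas within aret the factor was 1.10 and within orb2 2.23. Spans include introns, and for heph and bru-3 the longest spans held spliced lengths of 123 and of 600 to 624 bases.

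**Figure D4:**
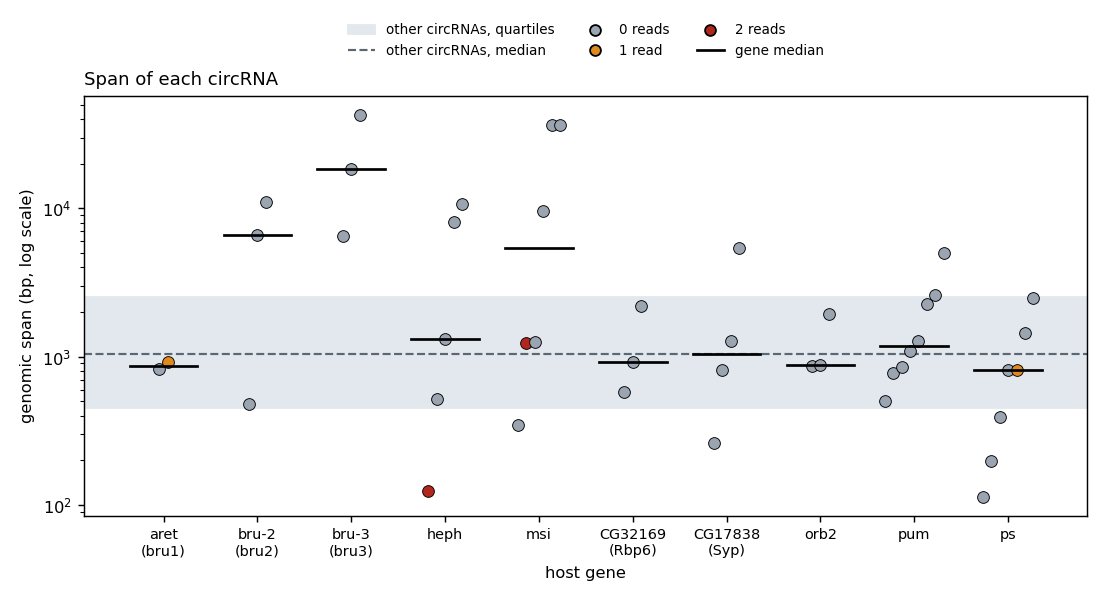
Genomic span of each circRNA in bp (y axis, log scale) by host gene (x axis), coloured by reads, with the gene median as a black line, and the median (dashed) and quartiles (shaded) of the other circRNAs of the table. The gene medians of bru-2, bru-3 and msi lie above the shaded band, and the 4 circRNAs with reads lie between 124 and 1231 bp.

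Of 51 other genes of RNA-binding proteins, 16 had a listed circRNA, with 46 circRNAs in all and a median of 2 per gene among these 16. The rest of the 51 had none. Those with at least 5 were sm with 8, sqd with 6 and Rbfox1 with 5, all with 0 reads. In this list 3 of the 46 circRNAs had a read, with 1 read each for shep, mub and larp, beside 4.76% of the table. Of 95 genes with at least 5 circRNAs, 7 had none with an assigned start codon class and were left out. Among the other 88, those most like pum by summed rank differences in number, shared ends, median span and start codons were CG34123 (Trpm; 16.5), par-1 (41) and Spn (41.5). Their circRNAs numbered 8, 7 and 7, with median spans of 1095, 1250 and 1120 bp and 0, 1 and 3 reads, beside 8, 1180.5 bp and 0 reads for pum. A shared end was found for 37.5% of the circRNAs of CG34123 and for 71.4% of those of both par-1 and Spn, beside 37.5% for pum. Of the circRNAs that could be assessed, 12.5%, 25% and 28.6% held a start codon, beside 25% for pum.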

How the data were processed

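Ribosome-protected fragments of fly heads were sequenced in 4 libraries. The reads were handled with cutadapt 1.9.1 on build dm3, per the submitters' processing notes, and freed of ribosomal RNA, per the file headers. The aligner is not given in the sources used here, nor is the circRNA caller. The deposited table holds the authors' whole-number count of reads per circRNA over all samples, not normalized. Its 4 library columns could not be tied to the labels and were not used, so the planned comparison of the buffers was not run.

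Members were selected by table symbol. They and the gene lists were chosen with earlier results of these data known. All 10 genes, each of their circRNAs with a read, and the shortest and longest of each gene were to be named. All 44 accessions led to the same gene as the symbol. The first coordinate was raised by 1. Spans were compared by length alone with exon blocks of Ensembl release 115 (BDGP6), since no coordinate was converted. The 28 members with 1 matching block lay at 1 constant distance on each of the 3 arms, which was 0 on 2L. With 1 to 6 bases added or removed, 28 to 60 spans of the table matched. Simulated blocks were drawn from the same annotation, so the recovery of 500 of 500 checks the lookup only. Random spans, of which 0 of 500 matched, were mostly longer than those of the table and say little on accidental matches of short spans. Strand, used to name acceptors and donors, is that of the annotation. Tools were numpy 2.4.6, pandas 2.3.3 and scipy 1.17.1 under Python 3.11.15. Read depth is 230 reads in all, and PCR duplicates are not told apart.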

Additional observations from a re-analysis of the deposited data

How the results depend on the processing

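With at least 2 reads in place of 1, the circRNAs with a read went from 4 to 2. With the start codon required in all matching transcripts in place of any, those holding one went from 12 to 7, since alternative transcripts of heph, aret and CG17838 begin elsewhere. The counts of listed circRNAs (44), reads (6) and circRNAs sharing an end (23) stayed within 1.5 times under the other alternatives. The median span (1244.5 bp) stayed within its interval (857 to 2187 bp) under these alternatives. Among these, genes named by the accession gave 51 circRNAs, 5 with a read, and 7 reads. Taking the block at the distance common to its arm, chosen after seeing the data, gave 13 circRNAs with a start codon. Leaving mbl and Sh out of the table, also chosen after seeing the data, put the share of the table with a read at 4.72%, beside the same 4 of 44. No paired analysis was possible because no label ties the library columns to replicates, and the fits of high against low detergent, with DESeq2, without a filter or without a replicate, were not run. Depth limits every statement on reads, since 40 of the 44 circRNAs had 0 and no member had more than 2.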

Other observations

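The 6 rows named CG16777, whose accession leads to ps, lie between the ps circRNAs on 3R and share 1 donor at 5267387. Their spans were 250, 985, 2317, 2320, 2541 and 2551 bp. The pair of 2317 and 2320 bp had acceptors 3 bases apart, as had the ps pair of 808 and 811 bp, and the pair of 2541 and 2551 bp had acceptors 10 bases apart. The 1 read among them fell on the 2541 bp circRNA, which matched no annotated exon block. Those of 250, 985 and 2320 bp each matched 1 block with a start codon.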
